A study of Mus musculus with 8 samples.

Results

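Polyclonal CD8 memory T cells of old mice were profiled on 4 Affymetrix Mouse Genome 430 2.0 arrays, 1 for each of 4 female mice, out of 8 arrays in the whole series. The other 4 arrays hold age-associated clonal expansions from the same animals and are not compared here. The 4 were found by their labels as polyclonal samples of aged mice, so no measured value chose them. Samples 1, 2 and 3 came from C57BL/10SnJ mice aged 20, 20 and 23 months, and sample 4 from a B10.BR mouse aged 23 months. All were sorted from spleen and lymph nodes as CD8+ CD122+ MHC II- cells. Each lacked the T cell receptor V beta chain of that mouse's own expansion, which was Vb3, Vb8.1/8.2, Vb8.3 and Vb14 for samples 1 to 4. Sort purity was 97, 75, 66 and 97%. The labels name no treatment. There was no young animal, no naive CD8 sample and no second array of any mouse among the 4, so all are old (20 or 23 months) and array, mouse, purity and, for sample 4, strain cannot be told apart.

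Memory CD8 T cells are long-lived descendants of cells that have met antigen or a homeostatic signal. They are kept alive by interleukin-15, read through CD122, the beta chain shared by the interleukin-2 and interleukin-15 receptors, and by interleukin-7. In old mice such cells make up much of the CD8 compartment, and they hold cytokine, chemokine and granule transcripts ready for rapid use. CD122 is also carried by natural killer (NK) cells and by some innate-like T cells, so CD8 and CD122 together with the missing MHC class II define the sort.

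Values are MAS5 signals, linear intensities scaled by the authors to a common trimmed mean on each array. A probe set's signal depends on its own sequence, so the order of genes by signal ranks probe sets and is not an order of transcript number. A gene was taken by its brightest probe set with a single gene name, which gave 18193 genes. It was called above background on an array where its signal passed a level set on that array by 27 control probe sets for bacterial RNA that was not added (their 95th percentile), which lay between 34.7 and 48.2. Signals, and the words at background, refer to that brightest probe set unless another is named. Dimmer probe sets of a gene often ordered the mice differently: of 3887 genes with more than 1 probe set above background on all 4 arrays, the brightest and the next brightest had the same highest array for 1515 (39%) and the same lowest for 1441 (37.1%). The order of the mice given for a gene is therefore that of 1 probe set. In RNA from a sorted population, fewer cells of a type and less RNA per cell cannot be told apart.

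The arrays differed in how much they detected. Between 22050 (sample 1) and 30498 (sample 3) of 45037 probe sets lay above background, with 28612 for sample 2 and 24741 for sample 4, so the samples of lower purity detected more. Median signal was 46.5 and 49.3 for samples 1 and 4 against 74.0 and 72.2 for samples 2 and 3. The ratio of 3' to 5' probe sets for Actb, a measure of how far labelled RNA reaches from the 3' end, was 54.5, 42.6, 34.9 and 89.7, and for Gapdh it was 7.33, 8.41, 4.62 and 5.66. Detection, purity and the Actb ratio therefore divide the arrays in the same way, and the part of RNA quality in the results below was not tested. Over all 4 arrays, 18189 probe sets (40.4%) were above background throughout and 8800 (19.5%) on none. Counted as genes, 48.8% were above background on all 4 arrays and 14.8% on none.

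The sort's own markers were present in all 4 samples. Cd8a, the CD8 alpha chain, had signals of 17529, 19782, 23890 and 14479 in samples 1 to 4. Cd8b1, the beta chain of the conventional CD8 heterodimer, had signals of 1142, 2126, 1588 and 693, and Cd3e, a signalling chain of the T cell receptor complex, 775, 1534, 1048 and 545. Sample 4 had the lowest signal for all 3 genes. Il2rb, which encodes CD122, was dimmer at 229, 298, 175 and 437, with sample 4 the highest. A second Il2rb probe set passed background in sample 2 alone (82.8). All 5 Cd8a probe sets were above background on all 4 arrays but ordered the samples differently. The next brightest read 13098, 6713, 6234 and 11011, lowest in samples 2 and 3, where the brightest was highest.

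**Figure D1:**
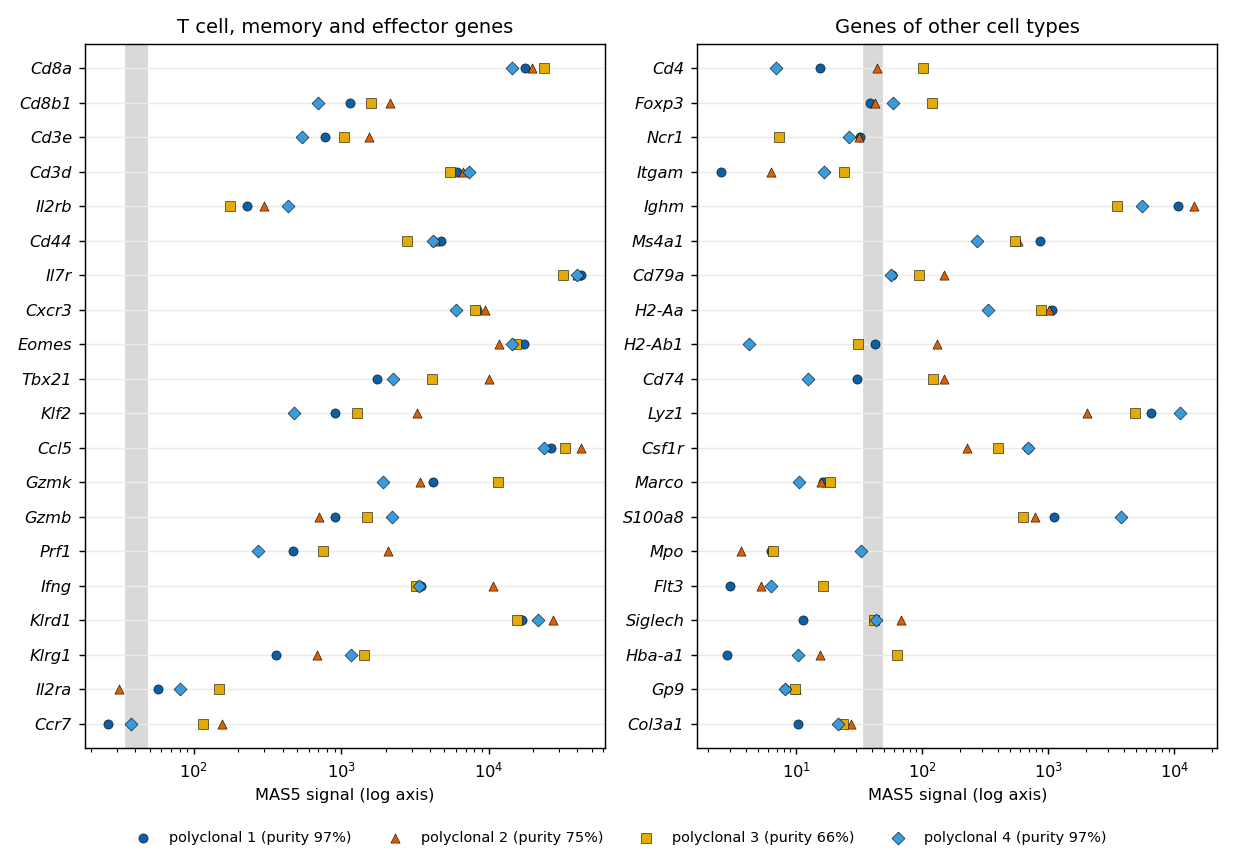
MAS5 signal (log axis) of each polyclonal sample for T cell, memory and effector genes (left) and for genes that mark other cell types (right); each point is 1 mouse and the grey band spans the 4 arrays' background levels, 34.7 to 48.2. Cd8a, Il7r and Ccl5 lie far to the right of the band in all 4 samples, whereas Ncr1, Itgam, Marco, Mpo, Flt3, Gp9 and Col3a1 stay at or left of it.

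The rest of the receptor complex was present as well. All 13 measured genes of the CD8 and T cell receptor complex list and all 18 of the T cell receptor signalling list were above background on all 4 arrays, against 48.8% of all genes. Ptprc (CD45, the tyrosine phosphatase of blood cells) gave 47192, 57753, 55556 and 40909 and was among the 25 brightest genes. Thy1, a surface glycoprotein of T cells, was less even, at 1726, 9847, 4096 and 1417, and Vav1, an exchange factor downstream of the receptor, read 247, 983, 618 and 155. For both, samples 2 and 3 were above samples 1 and 4. Sample 2 was highest for 10 of the 13 genes of the complex and sample 4 lowest for 11. Among all 10405 genes above the filter on level (a mean above the median of all probe sets) sample 2 was highest for 37.2%. Sample 4 was lowest for 3135 of these 10405 genes, more than any other sample.

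The brightest signals belonged to the protein synthesis machinery. Rpl13a, a protein of the large ribosomal subunit, led with 65068, 93422, 74143 and 53676. Ribosomal protein genes filled 11 of the 25 brightest places and 20 of the 100 brightest. Tpt1, a translationally controlled growth protein, the elongation factor Eef1a1, the initiation factor subunit Eif3e and the nucleolar protein Npm1 stood among the 25 too, along with Hint1, Nme2, Ddx5, Mbnl1, Uqcrb, Tmsb10 and H2az1. Apart from Ptprc, the lymphocyte genes there were Ms4a4b, a tetraspan membrane protein of T cells (49673, 69018, 49900 and 33492), and Gimap4, a GTPase of lymphocyte survival (45558, 54769, 43989 and 35913). For these lymphocyte genes, as for Rpl13a, sample 2 was highest and sample 4 lowest. Several of the ribosomal probe sets carry sequence shared with relatives or pseudogenes, so their gene assignment is uncertain.

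Memory surface genes were on with few exceptions, 15 of 17 measured being above background on all 4 arrays. Il7r, the interleukin-7 receptor alpha chain that sustains memory cells, was the brightest of them at 42604, 39645, 31944 and 40056, and its SD over the 4 mice was 0.18 on the log2 scale. Cxcr3, a chemokine receptor that guides effector and memory cells to inflamed tissue, was also even at 8332, 9391, 8045 and 6000. Cd44, the adhesion receptor used to define memory cells, read 4781, 4340, 2773 and 4219. None of these 3 genes spread by more than 2-fold between mice. Itga4, the integrin alpha4 chain, was not even, with 3182, 2676, 8221 and 1559, and all 5 of its probe sets were highest in sample 3. Cx3cr1, the fractalkine receptor of effector-type cells, read 745, 841, 1009 and 153, with sample 4 apart below the rest. The exceptions were Il2ra, the high-affinity interleukin-2 receptor chain of activated cells (57.5, 30.9, 147 and 80.0), and Ccr7, the lymph node homing receptor (26.3, 155, 116 and 37.6). Il2ra was at background in sample 2, and Ccr7 in samples 1 and 4. Ly6c1 and Ly6c2, further surface markers of memory cells, are not analysed here, since they had no probe set under their own single name.

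Transcription factors of CD8 memory were on broadly, with 26 of 29 above background on all 4 arrays. Eomes, the T-box factor of memory and CD122-bearing cells, gave 17451, 11801, 15353 and 14452, an SD of 0.24. Its relative Tbx21 (T-bet), which drives effector differentiation, gave 1741, 10134, 4158 and 2257, so the same-family genes differed in how far the mice were apart. Bright and even factors also included Klf3, Ikzf1, Runx3 and Stat4, each with an SD of 0.33 or less. Satb1, a chromatin organiser, was 21208, 19771 and 19623 in samples 1, 2 and 4 and 12576 in sample 3, while a dimmer probe set was lowest in sample 1. Klf2, the factor behind lymphocyte egress, read 902, 3253, 1281 and 475. Tox, linked to chronic stimulation, read 1967, 684, 5833 and 1013, and its relative Tox2 340, 613, 2840 and 552, so sample 3 was highest for both. The 3 factors not detected throughout were Batf (11.3, 200, 225 and 126), Id3 and Irf4, each at background in a single sample. Tcf7 is not analysed here.

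Granule and death ligand genes divided by member. Srgn, the proteoglycan that packs granules, was nearly constant at 16523, 15426, 15756 and 14924 (SD 0.06), and Fasl, the death ligand, read 8574, 9273, 8030 and 6635. Gzmk was the brightest granzyme, at 4187, 3444, 11515 and 1907. Gzmb read 907, 705, 1491 and 2222 and Gzma 444, 325, 828 and 718. These 3 granzymes did not order the mice alike, since sample 3 was highest for Gzmk and Gzma and sample 4 for Gzmb. Prf1 (perforin, the pore-forming protein) gave 474, 2066, 753 and 273, highest in sample 2, and Gzmm, another granzyme, 70.4, 718, 215 and 174. Gzmc, Gzme and Gzmf, granzymes of strongly activated killer cells, were at background on all 4 arrays, and Gzmd and Gzmg passed it in sample 2 alone (64.7 and 85.1). In all, 13 of 18 genes of this list were on in all 4 mice.

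Of the secreted factors, Ccl5 (RANTES, a chemokine stored as mRNA by memory CD8 cells) was by signal far above the others, at 26536, 42268, 32981 and 23898. Ifng, interferon gamma, read 3487, 10780, 3202 and 3395. Sample 2 stood apart, while the other 3 mice lay close together. Xcl1, a chemokine for cross-presenting dendritic cells, was even at 623, 540, 461 and 425. Ltb, lymphotoxin beta, spread most, with 162, 6060, 1711 and 63.8. Tnf was at background in sample 1 (14.5) and read 230, 91.7 and 108 in the others, and Il2 passed background in samples 2 and 4 alone (59.1 and 61.2). Il4 was at background on all 4 arrays. In all, 11 of 16 genes of this list were on in all 4 mice.

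NK-type receptors differed widely between the mice. Klrd1 (CD94, the partner chain of NKG2 receptors) was bright and even at 16904, 27340, 15648 and 21518, and Klrc1 (NKG2A, its inhibitory partner) read 3548, 3972, 2780 and 6891. By contrast Klra8, listed as the activating receptor Ly49H, read 441, 15079, 665 and 21818, with a gap of over 20-fold between samples 1 and 3 and samples 2 and 4. Klre1 divided the mice the same way, at 2589, 6368, 1449 and 10649. Klra7 was 623, 595, 88.6 and 2053, and Klra5 was 43.7, 59.8, 76.0 and 612, highest in sample 4 in both cases. Klra genes are a family of close relatives. The Klra7 and Klra8 probe sets are of the type that can bind several members, so which member was measured is uncertain. Of 12 tested genes of the list, 5 had an SD over 1 and sample 4 was highest for 7. Over all tested genes 10.4% had such an SD and sample 4 was highest for 16.5%. Klrg1, an inhibitory receptor of long-lived effector cells, read 359, 679, 1421 and 1168.

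Inhibitory receptors were detected in 12 of 14 cases. Btla, which restrains T cells through a TNF family ligand, read 10710, 6519, 7577 and 12727. Pdcd1 (PD-1) read 176, 148 and 177 in samples 1, 2 and 4 and 415 in sample 3. Ctla4 was likewise highest there, at 932, 748, 2134 and 454, as was Havcr2 (TIM-3) at 97.0, 122, 273 and 167. Lag3 was at background on all 4 arrays (4.00 to 7.42).

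Among cytokine receptors, Il18r1 (26651, 36010, 24252 and 30169) and Il7r were the brightest of 21 measured genes, 17 of which were on in all 4 mice. Il21r was uneven at 127, 535, 659 and 106. Il12rb2 was at background on all 4 arrays and Il9r passed it in sample 3 alone (37.8). S1pr5, a sphingosine phosphate receptor of effector and NK cells, led the spread of the homing list with 3493, 11203, 1351 and 6266, and Itgae (CD103, an integrin of tissue-resident cells) read 536, 1343, 1947 and 269. These receptors did not follow one order of the mice. Of that list 18 of 22 genes were on in all 4 samples.

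Genes of survival and cycling were detected in all mice. Mcl1, an anti-apoptotic protein needed by T cells, was even at 29136, 27125, 26594 and 23280. Bcl2, its relative, read 24264, 24776 and 21452 in samples 2 to 4 and 9356 in sample 1. One other Bcl2 probe set was lowest in sample 1 by the same kind of gap (1504 against 5877 to 7022), whereas the remaining 3 were not lowest there. Pcna, the clamp of DNA replication, was bright (30040, 16262, 12999 and 27850), and Mki67, a marker of dividing cells, read 2746, 2428, 3071 and 4658. Top2a gave 1974, 1278, 1826 and 2969 and Rrm2 1809, 1287, 1536 and 3216. With these probe sets sample 4 was highest for Mki67, Top2a and Rrm2, though not with the dimmer ones of Top2a and Rrm2. It was highest for 13 of the 30 tested cell cycle genes (17 of 30 after quantile normalisation), beside 16.5% of all tested genes (21.5% after quantile normalisation). Cdkn2a, the senescence inhibitor p16, stayed near background at 40.0, 53.3, 57.8 and 22.4, and Cdkn1a (p21) at 48.3, 51.6, 98.7 and 66.8 was above it on all 4 arrays by a small margin in samples 1 and 2.

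Interferon response genes were on in 14 of 19 cases. Gbp3, an interferon-induced GTPase, read 11667, 6132, 10346 and 10426 and Igtp 3846, 4408, 3890 and 4073, so neither set a mouse apart by much. Ifit3, of the type I interferon response, was highest in sample 4 (712, 1563, 1343 and 2633), and Bst2, a tether of virus particles, spread most (17.5, 764, 410 and 52.7). Glycolysis and oxidative phosphorylation genes were on in 20 of 21 cases with a median SD of 0.33, beside 0.48 over all tested genes and 0.37 over the brightest 10% of probe sets. Pgk1, a glycolytic kinase, read 30691, 21466, 19909 and 30882, higher in the mice of 97% purity with this probe set, whereas a second was highest in sample 3 (26589).

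The detection counts of the 19 lists of T cell function and basic metabolism lay between 68.8 and 100% of measured genes, and those of the 11 lists of other cell types between 14.3 and 62.5%. Over all genes the share was 48.8%. The lists were chosen with results of these data known, so these shares describe the arrays and support nothing further. Of the genes on all lists, 445 were measured and 93 had no probe set under their own single name.

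**Figure D2:**
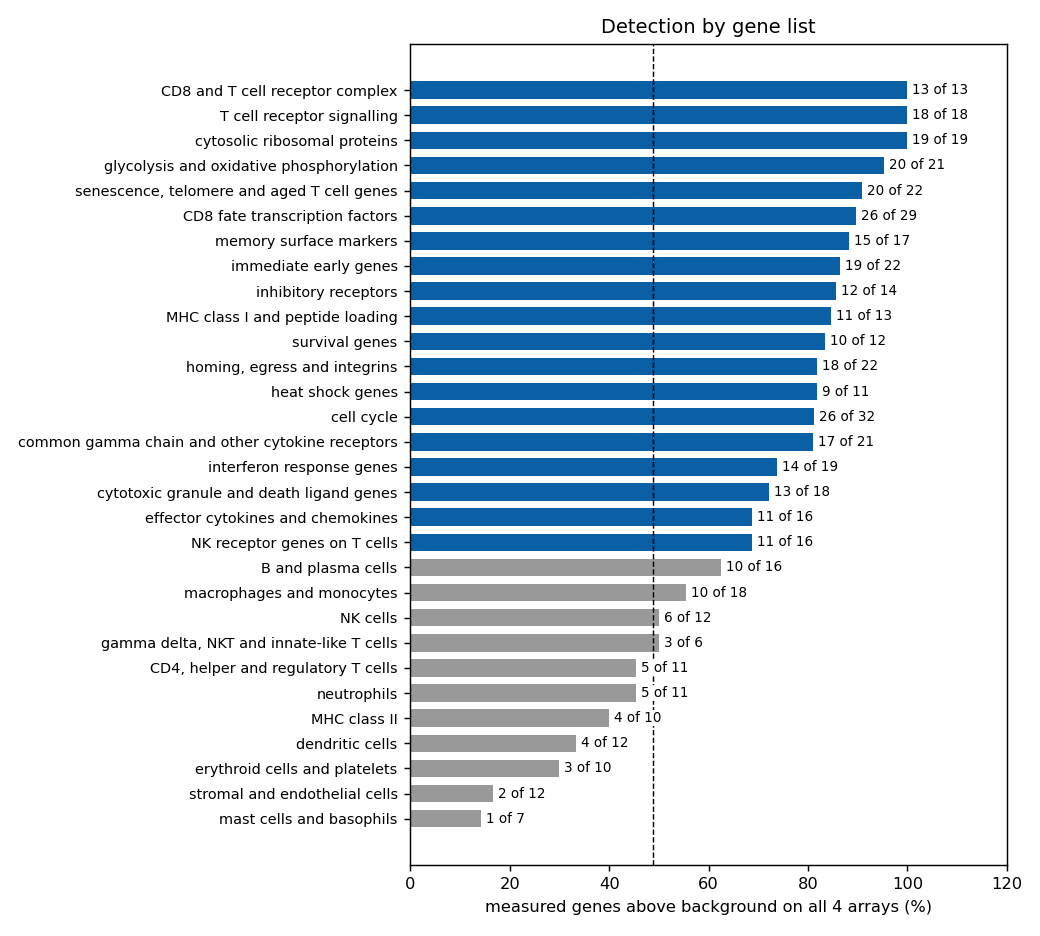
Share of each list's measured genes that were above background on all 4 arrays (bars, from 0; counts beside them), for lists of T cell function and metabolism (blue) and of other cell types (grey). The dashed line marks 48.8%, the share over all genes; the T cell receptor lists reach 100% and mast cells and basophils 14.3%.

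Genes of other lineages were present in part, and they did not all follow the stated purity. Cd4, which marks helper T cells, was at background in samples 1 and 4 (15.6 and 6.95), at its edge in sample 2 (43.9 against 43.6) and above it in sample 3 (101), the sample of lowest purity. A second Cd4 probe set was at background on all 4 arrays (6.13, 5.27, 5.62 and 3.68), so the order for Cd4 rests on 1 probe set. Foxp3, the regulator of regulatory T cells, was likewise highest in sample 3 (119, against 38.2, 42.2 and 59.0 in samples 1, 2 and 4), as was Cd40lg at 131 (38.2, 44.3 and 63.2). Il2ra and Cxcr5 were also highest in sample 3, at 147 and 414. Of the 11 measured genes of the CD4, helper and regulatory list 5 were on in all 4 mice, and its summed signal was 13307, 7968, 12859 and 8829, most of it Icos (11882, 6373, 9488 and 7782), which activated CD8 cells share. Sample 3 was highest for 6 of 8 tested genes of the list, under the deposited scaling and after quantile normalisation alike. Over all tested genes it was highest for 25.2 and 19%. How far cells of this kind enter the values of sample 3 was not tested.

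B cell and MHC class II genes were seen in all samples although MHC class II was gated out. Ighm, the immunoglobulin mu chain, read 10738, 14283, 3526 and 5537, Ms4a1 (CD20) 854, 577, 544 and 273, and Cd79b, a chain of the B cell receptor, 192, 249, 235 and 137. Jchain, which joins secreted immunoglobulin, was 3112 in sample 1 and 368 to 804 in the others. The summed signal of the 16 B and plasma cell genes was 19756, 22574, 8724 and 11885, so in this sum sample 1, of 97% purity, exceeded sample 3, of 66%. A large part of the sum was the brightest Ighm probe set. The next brightest ordered these samples the other way (222, 1119, 302 and 111), so the sum does not measure how many B cells were present. Sdc1 (CD138, of plasma cells) was at background on all 4 arrays with its brightest probe set, another passing it in sample 3 (38.6 against 34.7), and Pax5, the factor that commits cells to the B lineage, passed it in sample 3 alone (99.8). The class II gene H2-Aa was above background in all samples (1062, 1013, 872 and 332), whereas Cd74, the invariant chain, was so in samples 2 and 3 alone (150 and 122) and H2-Ab1 in sample 2 alone (132), although another of its probe sets passed in sample 4 alone (56.1). The summed signal of 10 class II genes was 3398, 4050, 2895 and 838. With their brightest probe sets H2-Aa, H2-Oa, H2-Ob and H2-DMa were each lowest in sample 4, the B10.BR mouse, which carries another H2 haplotype. For that mouse the level of these genes and the sequence match of their probe sets cannot be told apart. The dimmer H2-Aa probe sets were lowest there too, except for 1 that was highest there (50.5, 44.8, 14.2 and 61.6). Of the 10 genes, 4 were on in all mice. Under the highest of the 27 bacterial probe sets as background 2 of the 10 were, and under their median 8.

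NK, innate-like and myeloid genes were mixed. The share of list genes on in all 4 mice was 50% (NK), 50% (innate-like) and 55.6% (macrophage and monocyte). These lay near the 48.8% of all genes. Of the NK cell list 6 of 12 genes were on in all 4 mice, namely Eomes, Klre1, Klra8, Gzma, Nfil3 and Tyrobp, several of which memory CD8 cells also carry, and the defining receptor Ncr1 (NKp46) was at background on all 4 (7.36 to 32.4). Itgam (CD11b) was too. The summed signal of the NK list was 21395, 34262, 18668 and 48192, following Klra8 and Klre1. Of the macrophage and monocyte list 10 of 18 genes were on, led by Ctss, a protease (32273, 25666, 30296 and 30585), and the lysozyme Lyz1 (6500, 2025, 4873 and 11070). Csf1r, the receptor for macrophage growth factor, read 689, 228, 401 and 695, but its other probe sets did not show this order (102, 102, 182 and 48.1 for the next brightest). Marco and C1qc were at background on all 4 arrays. The list's summed signal ranged from 29399 in sample 2 to 44648 in sample 4. Of the gamma delta, NKT and innate-like list 3 of 6 genes were on in all mice, namely Cd1d1, Cxcr6 and Maf, while Zbtb16 (PLZF, the factor of innate-like T cells) passed background in samples 2 and 4 by a small margin (53.4 and 45.2) with its brightest probe set. The summed signal of this list was 13143, 9193, 15313 and 10188. Most of it was Cd1d1 (7424, 4982, 8029 and 6332), so the sum follows that gene and does not measure how many such cells were present. The receptor genes that define gamma delta cells are not analysed here.

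Neutrophil genes marked sample 4. S100a8, a granulocyte calcium-binding protein, read 1104, 779, 633 and 3795, and S100a9, its partner, 176, 207, 44.7 and 593. Ngp, a granule protein, read 636, 469, 490 and 2226. Sample 4 was highest for all 5 tested genes of the list (these, Camp and Ltf) with either scaling, and the list's summed signal was 2731, 2219, 1658 and 8088. Over all tested genes sample 4 was highest for 16.5% (21.5% after quantile normalisation). Mpo, the myeloperoxidase of immature granulocytes, was at background on all 4 arrays, and 5 of 11 genes were on throughout. Chil3 (235, 310, 357 and 2485) and Slfn4 (288, 164, 223 and 1169), myeloid genes outside the list that were picked after their values were seen, had the same order of sample 4 over the rest.

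Dendritic cell genes were on in 4 of 12 cases (7 without sample 1, and 10 with background at the median of the 27 control probe sets), and Flt3, the receptor of their precursors, was at background throughout. The summed signal was 1187, 3402, 3417 and 1324, with Itgae and Bst2, both also T cell genes, as the largest contributors in samples 2 and 3. Of erythroid and platelet genes 3 of 10 were on in all mice. Slc4a1, the red cell anion exchanger, was 1077 in sample 1 against 80.0, 84.2 and 166, and Car2, a carbonic anhydrase, 3530 against 920, 685 and 1491. The list summed to 4936 in sample 1 and 1259 to 2025 in the other 3, while Hba-a1, an alpha globin, was at background there (2.82) and Gp9, of platelets, on all 4 arrays. Mast cell and basophil genes (1 of 7 on throughout; summed signal 286 to 496) and stromal and endothelial genes (2 of 12; 411 to 911) were dim, and Mcpt4, Col3a1 and Pecam1 were at background on all 4 arrays with their brightest probe sets, a second for Col3a1 reading 43.7 in sample 2 against 43.6. Without sample 2 there were 2 of 7 mast cell and basophil genes. With background at the median of the 27, 4 of these 7 were on, 7 of the 12 stromal, 6 of the 10 erythroid and platelet, 8 of the 11 neutrophil, 9 of the 11 CD4 and 5 of the 6 innate-like genes, so these counts depend on where background is set. Xist, expressed from the inactive X chromosome of females, was on in all 4 mice (4718 to 8914). Of the Y-linked genes, Uty was at background on all 4 arrays with its brightest probe set, while another pair passed it in sample 2 (48.9 and 54.1), whereas Kdm5d passed it by a small margin in samples 1 to 3 (40.9 to 61.3) and Eif2s3y in samples 2 and 3 (83.4 and 39.7).

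Spread between the mice was described by the SD over the 4 arrays of log2(signal + 5). Its median over 22518 probe sets above the filter was 0.540, with the 10th and 90th percentiles at 0.233 and 1.17. In all, 3526 of them (15.7%) had an SD over 1, and 1078 of 10405 genes (10.4%). Dim probe sets varied more, since 26.3% of the 4503 just above the filter had such an SD and 3.71% of the 4504 in the brightest 10%. Arrays 1 and 4 were the most alike by the share of tested probe sets that differed by over 1 log2 unit after samples 2 and 3, at 19.5 and 17.5%. The other pairs differed in 24.9% (3 and 4), 30.7% (2 and 4), 30.8% (1 and 3) and 38.2% (1 and 2). By this share the closest pairs were those of like purity. Both joined mice of different age, and the pair 1 and 4 also mice of different strain. By Spearman correlation samples 2 and 3 were again the closest (0.918), but samples 3 and 4 (0.909) came before samples 1 and 4 (0.902).

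**Figure D3:**
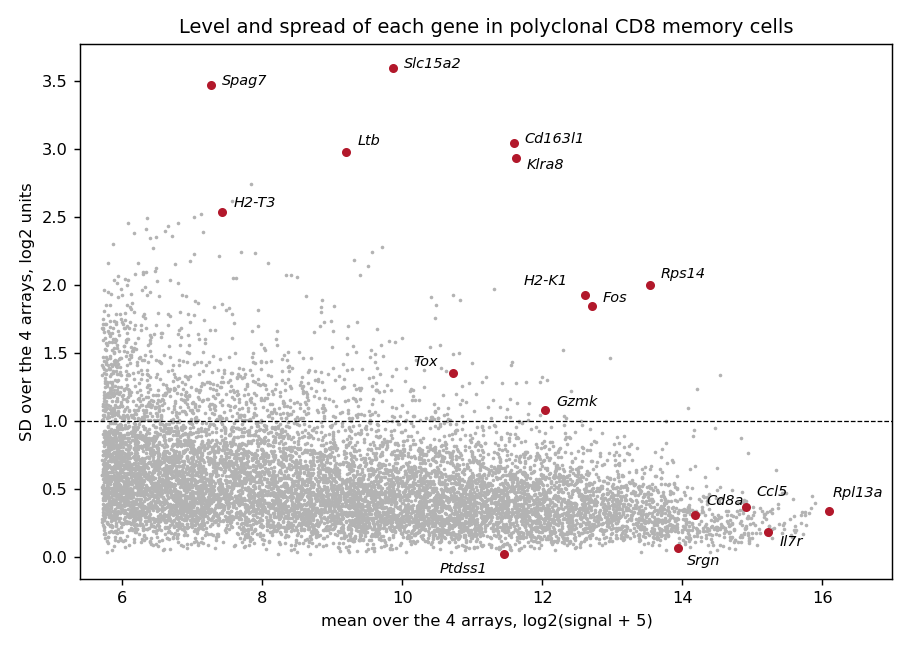
Each grey point is a gene above the filter, placed by its mean over the 4 arrays, log2(signal + 5), and by its SD over them in log2 units; the dashed line marks an SD of 1 and red points are named genes. Il7r, Ccl5, Cd8a and Srgn lie at high level with an SD under 0.4, whereas Slc15a2, Spag7, Cd163l1, Ltb and Klra8 reach about 3 or more.

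The most constant bright genes were of general cell function. Ptdss1, a phosphatidylserine synthase, read 2762, 2824, 2830 and 2819 (SD 0.02). Samm50, which inserts proteins into the outer mitochondrial membrane, read 21955, 21788, 21236 and 20934, although a dimmer probe set for it was uneven (195, 924, 367 and 121), and Bub3, of the mitotic checkpoint, 14222, 13290, 14243 and 13805. Exoc3, Atp10d, Lsm6, Serinc3, Map3k7, Poglut2 and 2410004B18Rik completed the 10 with the smallest SD, each with an SD that rounds to 0.05 or less.

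Of the 25 genes with the largest spread, 6 were above background on all 4 arrays, and the rest fell to background in 1 mouse or more. Slc15a2, a peptide transporter, led with 1086, 1696, 27.1 and 12809. It was at background in sample 3 and 7 times or more higher in sample 4 than elsewhere, but its other 2 probe sets were near background and did not show this order. Cd163l1, a scavenger receptor family member known from gamma delta T cells, read 130, 9455, 6021 and 11883. Its second probe set followed at 13.0, 701, 477 and 565, so sample 1 was far below the other 3 with both. Esm1, a secreted proteoglycan, read 192, 13.0, 1195 and 83.6, highest in sample 3. Spag7 (40.5, 1467, 874 and 4.60), Mrpl2 (126, 1715, 565 and 16.3), a mitochondrial ribosomal protein, and Tap2 (19.7, 1143, 638 and 65.8), a peptide transporter of antigen presentation, had samples 2 and 3 above samples 1 and 4. That order held for 13 of the 25 genes and the reverse order for none. Among all tested probe sets with an SD over 1, 2223 of 3526 (63%) had samples 2 and 3 above the others and 98 (2.78%) below. Over all tested probe sets these shares were 38.1 and 17%.

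**Figure D4:**
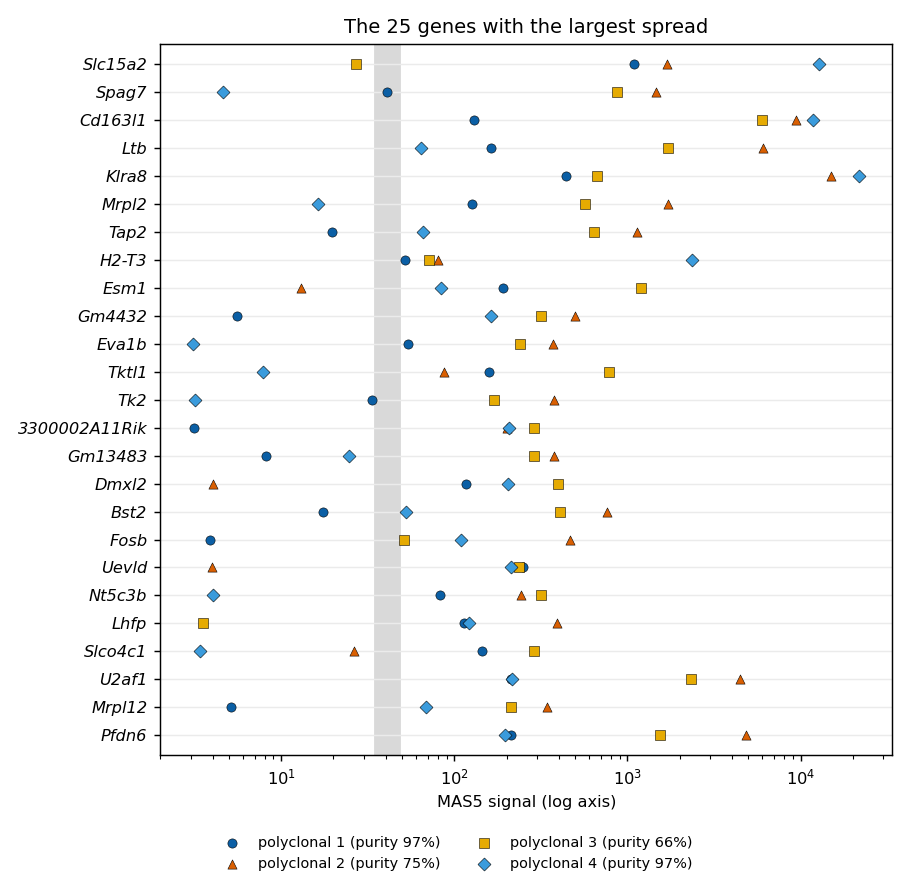
MAS5 signal (log axis) in each polyclonal sample for the 25 genes with the largest SD over the 4 arrays, ordered from the largest; the grey band spans the arrays' background levels, 34.7 to 48.2. In 13 of the 25 the triangle and square (samples 2 and 3, purity 75 and 66%) both lie right of the circle and diamond (samples 1 and 4, 97%).

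Sort purity was the one label that divides the mice 2 against 2 with both ages on each side. Samples 2 and 3 (75 and 66%) were therefore compared with samples 1 and 4 (97% each), the B10.BR mouse being in the latter group. With limma and Benjamini-Hochberg adjustment, 0 of 22518 probe sets (0%) passed an adjusted p of 0.05, and the smallest adjusted p was 0.107. At an unadjusted p under 0.05 the lower-purity samples were higher for 3204 probe sets (14.2%) and lower for 1088 (4.83%). This split followed the scaling. The median difference was 0.34 log2 units with the deposited values, -0.04 after quantile normalisation and -0.22 with each array centred on its median, and the counts were then 1541 higher and 1649 lower (6.84 and 7.32%) and 1025 higher and 4034 lower (4.55 and 17.9%). In simulated data this design recovered 1.49, 35.8 and 93.9% of probe sets changed by 1, 2 and 4 log2 units, so a difference of 1 log2 unit was rarely detectable with 2 mice a side. The simulated noise was normal and independent between arrays and probe sets. It held no shift of a whole array and no drop in a single array, so these shares need not hold for the real arrays. The p-values measure the spread between these mice, 1 sorted sample each. Without sample 1 there were 761 calls and without sample 4 there were 2233, each resting on a lone sample of high purity with 1 residual degree of freedom. Without sample 2 or sample 3 there were 0.

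The genes that came nearest were the following, given as values since none passed. U2af1, a splicing factor that recognises the 3' end of introns, read 211, 4477, 2333 and 215, a difference of 3.89 ± 0.42 log2 units (SE; limma adjusted p = 0.107). Coro1a, a coronin that organises actin in lymphocytes, read 727, 7642, 3817 and 490, a difference of 3.17 ± 0.43, and a second probe set for it gave 3.21. Both Rps14 probe sets, for a small-subunit ribosomal protein, behaved alike, the brighter at 5628, 46751, 30562 and 2487. Cyba, a subunit of the phagocyte oxidase, read 429, 3314, 2110 and 355, and Trbv1, a V beta segment of the receptor, 1919, 9575, 8441 and 1769. For each of these 5 genes, which were chosen for their small p, samples 2 and 3 lay several-fold above both samples 1 and 4. Samples 2 and 3 were above both others for 38.1% of all tested probe sets. Spag7, Zdhhc18, Prex1, Mdp1 and Tars, a threonyl-tRNA synthetase, completed the 10, all with limma's adjusted p at 0.107.

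In the other direction, Cct8, a subunit of the cytosolic chaperonin, read 15644, 6006, 5773 and 15674, a difference of -1.41 ± 0.24. Atm, the kinase of the DNA damage response, read 10301, 4383, 3751 and 11553, and Bach1, a haem-regulated repressor, 12305, 3996, 4421 and 10692. Nampt, of NAD synthesis, read 7410, 2145, 2841 and 7000. With these probe sets the pairs did not overlap for any of the 4 genes, as they did not for 17% of all tested probe sets in this direction. A second probe set went the other way for Atm (1481, 1954, 1742 and 1178; 0.48 log2 units) and Bach1 (66.0, 134, 71.1 and 26.9; 1.11), and for Nampt it was nearly level (1374, 1043, 1154 and 1094; -0.16). Zfp87, Rrp8, Timm29, Rragd, Desi2 and Pmpcb completed the 10, with limma's adjusted p from 0.130 to 0.137 for all 10. The Actb 3' to 5' ratio and the number of probe sets detected divide the same pairs, so these and purity cannot be told apart.

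The marker genes showed no call by purity either. For Cd8a the difference was 0.45 ± 0.24 log2 units, lower-purity samples higher (limma adjusted p = 0.334), and for Cd8b1 it was 1.04 ± 0.39 (limma adjusted p = 0.233). The next brightest Cd8a probe set went the other way, at -0.89 (limma adjusted p = 0.178). The remaining Cd8a probe sets gave -0.07, 0.05 and 1.17, so the direction for Cd8a depends on the probe set. Over the 13 genes of the CD8 and T cell receptor complex the median difference was 0.90 and 11 were positive, beside a median of 0.34 and 65.4% positive over all tested probe sets. For the 13 genes of MHC class I and peptide loading the median was 1.45, and for the 19 ribosomal protein genes 0.64. Neutrophil genes had a median of -1.30 over 5 tested genes and macrophage genes -0.45 over 11, so the medians of both lists were below 0. Sample 4, the B10.BR mouse, lay furthest from the mean in both the class I and the neutrophil list. Median deviations from the mean in samples 1 to 4 were -0.164, 0.754, 0.543 and -0.963 for class I genes. For neutrophil genes they were -0.120, -0.185, -0.711 and 1.55. The part of that single mouse in these medians was not tested.

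Each mouse also had genes of its own. These patterns rest on single mice and have no test, and the genes outside the lists were picked after their values were seen. In sample 1 heat shock genes were high. Hspa1b, an inducible HSP70, read 2963, 408, 145 and 238, and Hspa1a, its neighbour, 227, 121, 13.7 and 28.1. Dnajb1, an HSP40 cochaperone, read 29100, 17538, 14965 and 19482, though a second probe set for it was highest in sample 2, and sample 1 was highest for 7 of the 11 heat shock genes with either scaling, beside 21.2% of all tested genes (deposited scaling). Cd24a (3402, 470, 278 and 1008) and the erythroid genes Slc4a1 and Ermap (296, 56.4, 68.4 and 104) were highest there as well.

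Sample 2 was marked by immediate early genes, which are induced within minutes of stimulation. Fos read 7983, 23914, 1128 and 9194, and Dusp1, a phosphatase that ends MAP kinase signals, 2541, 14399, 512 and 2157. Ier2 gave 300, 4327, 1337 and 156, and Dusp2 106, 2254, 540 and 117. Sample 2 was highest for 15 of the 21 tested genes of the list with both scalings, beside 37.2% of all tested genes. Not all members joined, since Cd69, an early activation antigen, was lowest in sample 2 (5290, 3136, 7559 and 5823) and Nr4a2 was highest in sample 4 with its brightest probe set (385, 553, 976 and 1418). Klf4 (560, 4181, 276 and 606) and Rhob (162, 922, 119 and 180), both inducible genes outside the list, were highest in sample 2.

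Sample 3 combined Gzmk, Tox, Tox2, Itga4, Pdcd1 and Ctla4, given above, with other genes of stimulated or aged T cells. Maf, a factor of helper and exhausted T cells, read 1421, 450, 4395 and 658, and Ikzf2 (Helios) 727, 1446, 4246 and 1431. Casp1, the inflammatory caspase, read 3903, 1447, 7066 and 1914, and S100a4, a calcium-binding protein of memory cells, 1744, 2958, 5928 and 568. Aim2, a sensor of cytosolic DNA, was at the edge of background in samples 1 and 4 (44.1 and 47.4), 166 in sample 2 and 767 in sample 3. Trat1, a T cell receptor adaptor, read 97.1, 211, 1020 and 124. Sample 3 was highest for 9 of the 20 tested genes of the senescence, telomere and aged T cell list and for 9 of the 17 memory surface markers, beside 25.2% of all tested genes. Foxp3 and, with 1 of its probe sets, Cd4 moved with these genes, as stated above, and their part was not tested.

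Sample 4, the B10.BR mouse, stood apart in the genes of the H2 complex, the mouse major histocompatibility complex. C57BL/10 and B10.BR are congenic strains that carry different H2 haplotypes, b and k. H2-K1, a classical class I heavy chain, read 7148, 19974, 11331 and 932, and all 4 of its probe sets were lowest in sample 4. H2-D1, the other classical class I gene, read 1329, 3625, 3154 and 253 with its brightest probe set, while another of its 9 probe sets was highest in sample 4 (141, 215, 458 and 1560). H2-T3, the thymus leukaemia antigen, read 51.7, 80.3, 71.7 and 2371, and its second probe set 10.6, 38.3, 10.6 and 1354. H2-Q5 read 296, 634, 659 and 19.8. B2m, the class I light chain encoded outside the complex, was even at 37084, 27152, 30784 and 28152. Class I probe sets share sequence among relatives and were designed on a reference allele, so level and sequence match cannot be told apart here.

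Over the 79 tested genes that lie from H2-K1 to H2-M2 in the RefSeq gene table, sample 4 was apart from all 3 others by over 1 log2 unit for 12 (15.2%), as it was for 3.57% of 10309 genes elsewhere. Of these 12, H2-T3 alone was high. The 11 that were low were H2-K1, H2-D1, H2-Q5, H2-T24, the class II genes H2-Aa, H2-Oa, H2-Ob and H2-DMa, and Ltb, Flot1 and Atf6b. Sample 2, a C57BL/10SnJ mouse, was apart for 13 (16.5%, against 6.24% elsewhere), so standing apart in the complex was not peculiar to the B10.BR mouse. Sample 1 was apart for 5 (6.33%, against 4.24%) and sample 3 for 2 (2.53%, against 2.68%). After quantile normalisation the counts were 12 for sample 4 and 10 for sample 2.

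**Figure D5:**
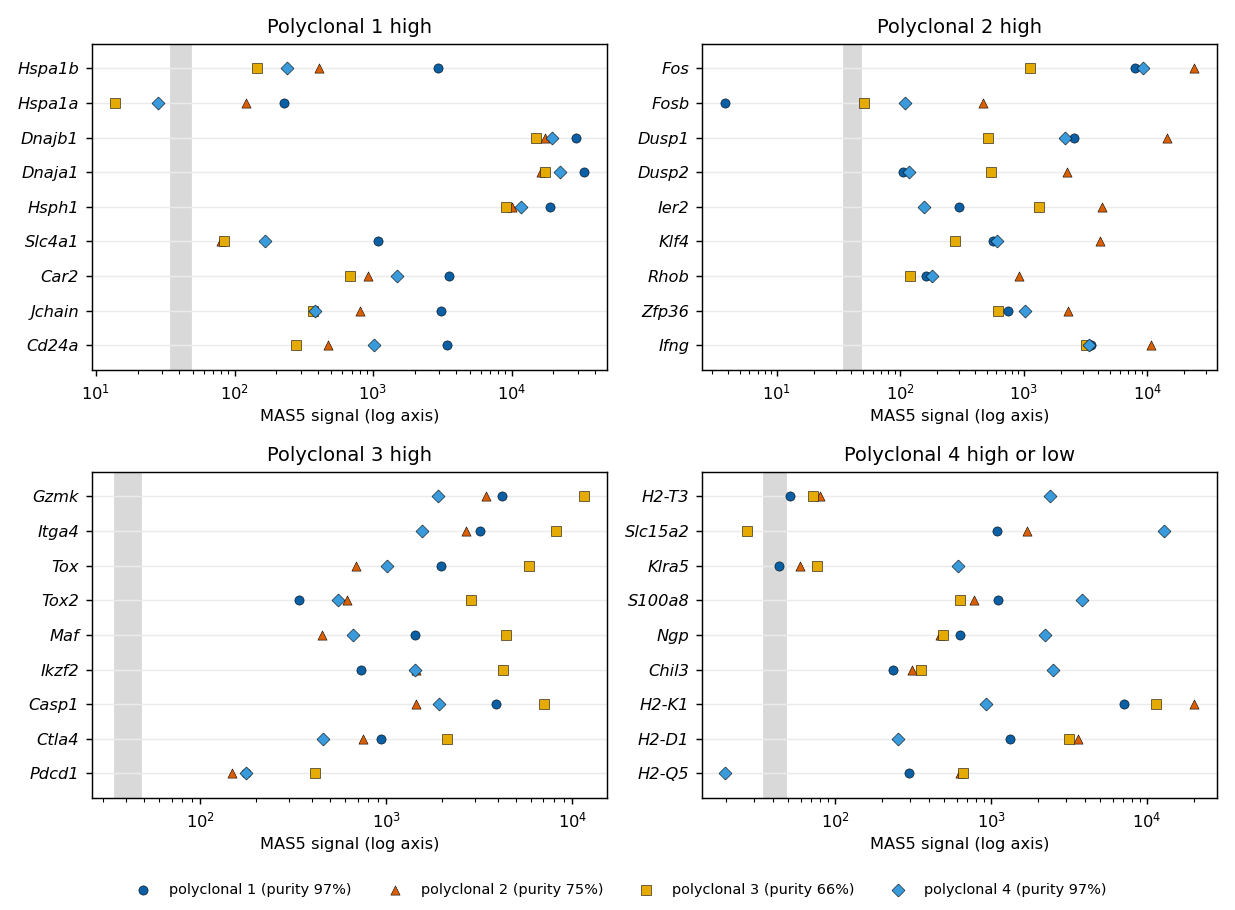
MAS5 signal (log axis) of the 4 polyclonal samples for genes in which 1 mouse stood high (or, for sample 4, high or low); each point is 1 mouse and the grey band spans the background levels, 34.7 to 48.2. Hspa1b is highest in sample 1 (2963), Dusp1 in sample 2 (14399), Gzmk in sample 3 (11515) and S100a8 in sample 4 (3795), where H2-K1 is lowest (932).

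Counted over all tested probe sets, 73 (0.324%) had 1 array high by over 2 log2 units above every other and 1051 (4.67%) had 1 array low by as much. Sample 1 was the low one for 737 of the 1051 and sample 4 for 191, against 81 for sample 2 and 42 for sample 3. The high ones were 8, 36, 17 and 12 for samples 1 to 4. Probe sets low in a single mouse were therefore mostly low in sample 1, among them Pot1b (15.6, 338, 576 and 441), a telomere end-binding protein, and Ddx23 (6.13, 167, 171 and 129), a splicing helicase, both picked after their values were seen.

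Segments of the receptor beta chain could be followed for a pair of genes. Trbv13-2, the Vb8.2 segment, read 64.6, 119, 123 and 117, and sample 2, which was sorted to lack Vb8.1/8.2, lay between samples 4 and 3. Trbv1, given above, encodes a segment that no sort removed.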

How the data were processed

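RNA of all samples was isolated in parallel with a PicoPure kit from cells frozen after sorting, amplified in 2 rounds and labelled with biotin, per the labels' protocols. The deposited table gives linear intensities of 45101 probe sets, which the authors computed with MAS5 according to the submitters' processing notes, without a version. On each array these intensities have a 2% trimmed mean of 500, so they were not scaled again. That scaling hides any difference in total RNA per cell, and amplification in 2 rounds favours 3' ends. The table carries no detection calls. Precision is limited by having 4 arrays. The 4 arrays share 1 record of scan day and scanner, so neither defines a batch.

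The 64 control probe sets were left out, and the other 45037 taken as log2(signal + 5); differences on that scale understate those of dim probe sets. Background was, on each array, the 95th percentile of 27 control probe sets for unspiked bacterial RNA. Tested probe sets, 22518, had a mean log2 value above the median (a signal of about 47.5). Gene names came from the platform annotation, in which 34958 probe sets have 1 symbol, 932 several and 9211 none; 34754 matched a RefSeq gene table (GRCm38.p6) by Entrez identifier, which changed 0 symbols and was otherwise used for gene order in the H2 complex. Probe sets with several symbols named nothing.

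The purity comparison used limma (version 3.58.1, R 4.3.3), as lmFit followed by eBayes with an intensity trend (2 residual degrees of freedom; two-sided; Benjamini-Hochberg, threshold 0.05). It was tried on 22518 simulated probe sets, of which 67, 67 and 66 were changed by 1, 2 and 4 log2 units. Of these 1.49, 35.8 and 93.9% were called, beside 17 false calls among the unchanged ones, a larger share of the calls than the threshold of 0.05 stands for. The simulated noise was normal and independent, unlike that of the real arrays. Everything else is description without a test.

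Named genes were the 25 brightest, the 25 with the largest SD among genes above the filter, the 10 with the smallest SD in the brightest 10%, the 10 with the smallest p per direction by purity, 4 brightest and 4 most variable members of each of 32 lists, the markers Cd8a, Cd8b1, Il2rb, Cd3e and Cd4, and members of other-lineage lists on in all samples or defining ones at background in all. List members outside this rule, the genes in which 1 mouse stands apart and those of the H2 complex were chosen after their values were seen. The samples, lists and rules were chosen with earlier results of these data known. Alternatives covered the background level, pseudocount, scaling, filter, probe set summary, purity as a number, age as a term, the trend and the omission of each sample.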

Additional observations from a re-analysis of the deposited data

Results flagged for a closer look

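Of 291 genes checked, 20 had 1 mouse apart from the other 3, in that the gap to the nearest of them, divided by the whole range of log2 values, passed Dixon's 95% critical value for 4 samples. That is 6.87% of those checked, beside 4.91% of all 10405 tested genes, and chance gives about 1 in 20. Some of the genes checked, such as Cd163l1, Uevld and Ptdss1, had been named for their large or small SD in the same values. Klrc2, Zbtb16, C1qa, Xcr1, Fcer1a and Pilra lay below the filter on level, outside the tested genes. The shares therefore cannot show whether standing apart was more common among the genes checked.

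Sample 1 stood apart below the rest for Cd163l1 (ratio 0.848), 3300002A11Rik (0.902; signals 3.15, 200, 287 and 208), Bcl2 (0.852), Trbv13-2 (0.913) and Ptdss1 (0.849), the last over a range that is very narrow. Sample 2 stood apart above for Ifng (0.930) and Cebpb (0.970; 199, 454, 196 and 194), a factor of myeloid and activated cells, and for Fcer1a (0.869), which passed background there alone (101). It stood apart below for Uevld (0.953; 249, 3.98, 235 and 212), Mpeg1 (0.904; 689, 223, 625 and 618), a macrophage pore protein, Klrc2 (0.873) and Xcr1 (0.837).

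Sample 3 was apart above for Pdcd1 (0.830) and for C1qa (0.864), a complement gene that was at background in the other 3 mice and 54.6 in this one. It was apart below for Satb1 (0.851) and Zbtb16 (0.897). Sample 4, the B10.BR mouse, was apart above for H2-T3 (0.890) and below for H2-Aa (0.830), Cx3cr1 (0.838) and Pilra (0.831). Klrc2, Zbtb16, C1qa, Xcr1 and Fcer1a were above background on 2 arrays or fewer, so their ratios rest on signals near background.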

How the results depend on the processing

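No paired analysis was possible because the 4 arrays form 1 group and no contrast with the expansions of the same mice was made. The number of probe sets above background on all 4 arrays was 18189. It was 27578 with background at the median of the 27 control probe sets, 15857 at their highest, 18194 after quantile normalisation and 18490 to 20811 with 1 sample left out. Probe sets with an SD over 1 numbered 3526, against 1353 with a pseudocount of 50, 15406 with no filter on level, 2555 after quantile normalisation, 2760 with arrays centred on the median and 2360 to 3756 with 1 sample left out.

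By purity, 0 probe sets passed with limma, against 1 after quantile normalisation, 2 with no filter, 3 with age as a second term and 0 to 2233 with 1 sample left out. The 2233 were reached without sample 4 and 761 without sample 1, and the cause was not tested. The count stayed at 0 with either other pseudocount, arrays centred on the median, a filter at background, purity as a number and no intensity trend. No difference of the 20 named purity genes changed direction under these alternatives. Of the 25 genes with the largest SD, 11 remained among the 25 with a pseudocount of 50 and 20 to 22 with the other pseudocount and scalings, and 12 to 17 with 1 sample left out. Depth on arrays is limited by signal over background, so dim genes near 34.7 to 48.2 have the least reliable order. Taking the mean of all probe sets in place of the brightest moved the level of 115 of 348 named genes. Background at the median of the 27 moved 9 of 32 list counts by over 1.5 times, and at their highest 1 of 32.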
